A study of Rattus norvegicus with 12 samples.

Results

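The genes described here carry glucose into the cell, break it down to pyruvate and lactate, feed pyruvate into oxidation, and store and release glycogen. The list named 45 genes, and a gene counted as measured where a probe set carried its symbol alone. That held for 44 of them. Pkm2 is an older symbol with 0 such probe sets, and Pkm is on the list in its own right. Of the 44, 43 passed the filter on low values and were tested among 10025 genes. Phkg1, a catalytic subunit of phosphorylase kinase, had a mean of 4.435 on the log2 scale, under the limit of 4.782, and was not tested.

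Cultures of ventricular cardiomyocytes from neonatal Wistar rats were measured on 12 rat gene arrays, in 4 groups of 3. The γ+ group had been given adenovirus particles carrying mef2Cγ+, the γ- group adenovirus carrying mef2Cγ-, and the 23/24 group adenovirus carrying mef2Cγ+23/24. The control group was untreated. MEF2C is a muscle transcription factor whose γ segment is included or skipped by splicing, and the study asked how these forms change gene expression. All groups shared 44 h on collagen in medium with 10% horse serum and 5% fetal bovine serum, and then 24 h without serum. The sample titles call the 3 arrays of a group biological replicates. The labels do not define 23/24, do not say whether these replicates were separate cell isolations, and list no virus without an insert. The p-values therefore measure the spread among these arrays, which may leave out that between isolations. In the comparisons with control, an effect of the virus itself cannot be told apart from that of its insert. Mef2c had 0 probe sets of its own on the array, and neither it nor the transgenes were analysed here.

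Heart muscle takes up glucose through GLUT4 (Slc2a4), which insulin brings to the surface, and GLUT1 (Slc2a1), which works without insulin. Hexokinase traps the sugar, phosphofructokinase commits it to glycolysis, and pyruvate is either reduced to lactate or oxidised by the pyruvate dehydrogenase complex, which pyruvate dehydrogenase kinases switch off. Many steps have a muscle-type and a more widely used isozyme, and the newborn heart is known for its large glycogen stores and its reliance on glycolysis before fatty acid oxidation takes over.

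All values below are the deposited values, taken as log2. Differences between replicate arrays, taken over all probe sets, had an SD of 0.203 to 0.272 outside the γ+ group. Within it, the SD was 0.200 between replicates 1 and 3, but 0.292 and 0.293 for the pairs with replicate 2, and 35 of the 43 genes had their lowest γ+ value on replicate 2. Counts of glucose genes called are given with and without that array. Equal values on pairs of arrays showed that the γ+ arrays, the γ- arrays, and the 23/24 and control arrays together form 3 sets. These were probably normalized apart from each other, though the labels do not say so. Only the 23/24 group against control was thus compared within such a set. In every other comparison, an effect of processing by set cannot be told apart from that of the treatment. In whole cultures, fewer cells of a type and less RNA per cell cannot be told apart.

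Glucose and glycogen genes were lower in γ+ cultures than in untreated cultures at nearly every step of the route. Of the 43 genes, 34 fell, 4 rose and 5 did not pass the test (limma, adjusted p under 0.05). Over all 10025 genes tested, 64.9% were called, with 26.2% higher and 38.7% lower. The median log2 fold change was -0.38 over the glucose genes and -0.07 over all genes. The γ+ and control arrays did not overlap in 36 of the 43 (83.7%), against 66.6% of all genes. Fold changes reached -1 or below for 9 of them, and none reached 1. With the arrays centred on their medians, 25 fell and 4 rose, where 62.1% of all genes were called, 31.8% higher and 30.3% lower. Without γ+ replicate 2, 32 fell and 4 rose, where 66.7% of all genes were called. Ldha and Pfkfb3 were then not called (limma adjusted p = 0.0701 and 0.076). A fold minimum of 0.5 log2 left 16 of the 38 calls. Over the other 20 settings, 27 were called wherever the gene was tested, and the 11 lost under at least 1 of them were Eno1, Gapdh, Gpi, Ldha, Pfkfb1, Pfkfb3, Pfkfb4, Pgam1, Pgam2, Phka1 and Slc2a1.

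**Figure D1:**
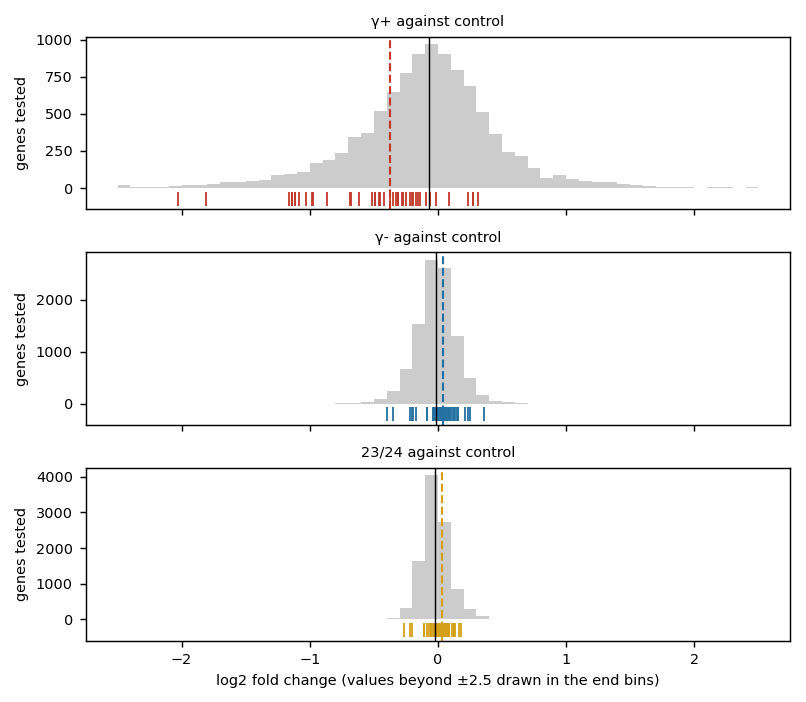
Log2 fold changes against control (horizontal axis) of all 10025 genes tested (grey histogram, number of genes) and of the 43 glucose and glycogen genes (coloured ticks), for the γ+, γ- and 23/24 groups. The solid line is the median of all genes and the dashed line that of the 43 genes, which in the γ+ group stood at -0.38 against -0.07. Both values depend on how the arrays were normalized, which the labels do not state.

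The largest falls were in the muscle forms of glycogen phosphorylase and enolase. Pygm, muscle glycogen phosphorylase, which releases glucose phosphate from glycogen, read 8.76, 8.75 and 8.87 in γ+, 10.86, 10.89 and 10.92 in γ-, 10.84, 10.90 and 10.93 in 23/24 and 10.87, 10.83 and 10.75 in control cultures. The 3 γ+ arrays lay far below the other 9, which overlapped each other. Its fold change in γ+ against control was -2.03 ± 0.05 on the log2 scale (SE, n = 3 each; limma adjusted p = 2.03e-14), or 4.08-fold lower. Eno3, the muscle enolase, read 6.64, 6.86 and 6.86 in γ+, 8.73, 8.60 and 8.68 in γ-, 8.55, 8.60 and 8.53 in 23/24 and 8.70, 8.58 and 8.50 in control cultures. Again the γ+ arrays stood below all others, and the fold change was -1.81 ± 0.07 (limma adjusted p = 2.7e-12), or 3.5-fold lower.

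The promoters of these 2 genes are shown with those of Aldoa and Pdk1, because MEF2C binds an A/T-rich element and because glycolytic genes are known for the hypoxia response core. RefSeq windows on GRCr8 ran from 250 bases before to 50 bases after the annotated start, and 40 of the 44 measured genes matched, with 44 windows, since 3 genes had several. Slc2a4, Pgk1, Pdp1 and Pdp2 did not match. Both strands were searched for the MEF2 consensus and for ACGTG, and each match is in capitals.
Pygm, chr1:213119555-213119854, + strand: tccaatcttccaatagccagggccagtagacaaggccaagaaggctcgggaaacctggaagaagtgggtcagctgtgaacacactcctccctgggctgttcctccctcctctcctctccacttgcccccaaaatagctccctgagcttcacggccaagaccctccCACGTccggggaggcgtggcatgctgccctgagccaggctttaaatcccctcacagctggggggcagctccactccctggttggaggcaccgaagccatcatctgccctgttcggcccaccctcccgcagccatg
Eno3, chr10:55868936-55869235, + strand: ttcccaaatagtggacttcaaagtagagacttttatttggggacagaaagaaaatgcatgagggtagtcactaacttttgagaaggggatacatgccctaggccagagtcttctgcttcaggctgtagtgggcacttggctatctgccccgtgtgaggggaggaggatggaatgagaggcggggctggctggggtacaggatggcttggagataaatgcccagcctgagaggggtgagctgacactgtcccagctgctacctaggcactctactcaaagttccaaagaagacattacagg
Aldoa, chr1:190837599-190837898, - strand: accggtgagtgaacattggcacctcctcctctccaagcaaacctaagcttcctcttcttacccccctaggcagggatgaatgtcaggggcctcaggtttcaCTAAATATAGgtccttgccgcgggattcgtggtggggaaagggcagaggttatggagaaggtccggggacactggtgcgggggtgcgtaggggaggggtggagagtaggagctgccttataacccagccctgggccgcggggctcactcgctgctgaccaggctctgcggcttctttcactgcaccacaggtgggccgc
Pdk1, chr3:77113264-77113563, + strand: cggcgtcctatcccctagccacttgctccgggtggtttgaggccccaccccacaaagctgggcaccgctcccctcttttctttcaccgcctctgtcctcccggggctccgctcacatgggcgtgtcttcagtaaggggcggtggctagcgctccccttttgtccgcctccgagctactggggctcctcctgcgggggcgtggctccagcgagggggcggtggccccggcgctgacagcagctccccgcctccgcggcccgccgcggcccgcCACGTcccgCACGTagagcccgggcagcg
The Aldoa window is the 1 window of 44 (2.27%) with the MEF2 consensus, against 1.46% of the 8770 windows of tested genes and 3.29% of all 33469 windows. Neither Pygm nor Eno3, which fell most, has the consensus in these letters. ACGTG stands in 24 of the 44 windows (54.5%), against 25.6% of windows of tested genes and 19.3% of all windows. The E-box CACGTG, which overlaps ACGTG, is in 5 (11.4%), against 9.37% and 6.42%. Median GC content was 61.5% in the glucose genes' windows, 61.0% in those of tested genes and 51.7% in all windows. Of the glucose genes with a window, ACGTG is present for 2 of the 4 that rose in γ+ cultures, 19 of the 31 that fell and 2 of the 4 that were not called. These are letter matches, not measured binding.

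Transcripts of all 4 tested transporters of glucose and lactate were lower in γ+ than in control cultures, and transport itself was not measured. Slc2a4 (GLUT4) read 7.33, 6.87 and 7.22 in γ+, 8.24, 8.05 and 8.14 in γ-, 7.997, 8.06 and 8.06 in 23/24 and 8.10, 8.15 and 8.13 in control cultures. The γ+ arrays did not overlap the others, and the fold change was -0.98 ± 0.09 (SE; limma adjusted p = 8.4e-08). Slc2a1 (GLUT1) read 9.67, 9.19 and 9.68 in γ+, 9.56, 9.57 and 9.70 in γ-, 9.97, 9.93 and 9.98 in 23/24 and 9.79, 9.73 and 9.83 in control cultures. Its γ+ arrays overlapped those of the γ- group, and the low value of γ+ replicate 2 widened the spread. The fold change against control was -0.27 ± 0.10 (limma adjusted p = 0.0208). Slc16a1, the monocarboxylate transporter MCT1, which moves lactate and pyruvate, read 9.62, 9.28 and 9.60 in γ+, 9.61, 9.69 and 9.68 in γ-, 9.95, 9.92 and 9.95 in 23/24 and 9.85, 9.77 and 9.93 in control cultures. The γ+ arrays lay below those of 23/24 and control cultures and overlapped those of the γ- group. Slc16a1 fell by 0.35 in γ+ against control with a limma adjusted p of 0.000747. Slc16a3, the lactate exporter MCT4, fell by 0.38 (limma adjusted p = 0.000674).

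Hexokinases and the muscle subunit of phosphofructokinase fell by about the same amount. Hk1, the widely expressed hexokinase, read 9.29, 9.18 and 9.30 in γ+, 10.30, 10.33 and 10.34 in γ-, 10.29, 10.35 and 10.40 in 23/24 and 10.28, 10.29 and 10.30 in control cultures, and Hk2, the insulin-responsive hexokinase of heart and muscle, read 7.12, 6.60 and 7.20 in γ+, 7.86, 7.82 and 7.85 in γ-, 7.73, 7.81 and 8.0 in 23/24 and 8.01, 8.10 and 8.08 in control cultures. In both genes each γ+ array was below every other array, with fold changes of -1.03 ± 0.05 and -1.08 ± 0.12 (SE; limma adjusted p = 2.35e-11 and 4.89e-07). Pfkm, the muscle phosphofructokinase, read 7.76, 7.42 and 7.72 in γ+, 8.79, 8.78 and 8.87 in γ-, 8.74, 8.81 and 8.84 in 23/24 and 8.74, 8.84 and 8.74 in control cultures. It fell by 1.14 on the log2 scale (SE 0.08, limma adjusted p = 1.91e-09). Pfkp, the platelet form, read 10.05, 9.69 and 10.07 in γ+, 10.59, 10.58 and 10.57 in γ-, 10.57, 10.69 and 10.70 in 23/24 and 10.65, 10.67 and 10.53 in control cultures, with a fold change of -0.68 ± 0.08 (limma adjusted p = 1.44e-06).

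Pfkl, the liver form, went the other way. It read 8.18, 8.04 and 8.15 in γ+, 8.07, 7.96 and 8.09 in γ-, 8.04, 8.01 and 8.01 in 23/24 and 7.88, 7.92 and 7.87 in control cultures. The γ+ arrays lay above all control arrays and all 23/24 arrays but overlapped those of the γ- group, and Pfkl rose by 0.23 ± 0.06 (SE; limma adjusted p = 0.00237). The γ- and 23/24 arrays lay above all control arrays too, with fold changes of 0.15 and 0.13 (limma adjusted p = 0.128 and 0.534, not called). In γ+ cultures Pfkl was not called against γ- (0.08) or 23/24 (0.10) cultures. Among the aldolases, which split the doubly phosphorylated sugar, Aldoc read 6.03, 5.89 and 5.91 in γ+, 7.01, 6.95 and 7.03 in γ-, 7.12, 7.12 and 7.25 in 23/24 and 6.99, 7.07 and 7.18 in control cultures, with no overlap between γ+ and any other group. Aldoc fell by 1.14 (SE 0.07, limma adjusted p = 7.96e-10) and Aldoa by 0.46. Gpi, glucose phosphate isomerase, fell by 0.20. Tpi1, triose phosphate isomerase, had a fold change of -0.09 and was not called. Of the 9 genes of this upper stretch, 7 fell and 1 rose, with a median of -0.68.

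The 4 bifunctional enzymes that make and remove the allosteric activator of phosphofructokinase were not uniform. In γ+ cultures 3 fell and 1 rose against control, with a median of -0.25. Pfkfb2, the heart form, which kinases activate in response to insulin and workload, read 6.09, 5.87 and 5.79 in γ+, 6.13, 5.96 and 5.93 in γ-, 6.11, 6.10 and 6.21 in 23/24 and 6.37, 6.43 and 6.42 in control cultures. All 9 arrays of virus-treated cultures lay below all 3 control arrays. The fold change was -0.49 ± 0.09 in γ+ (SE; limma adjusted p = 0.000113), -0.40 ± 0.09 in γ- (adjusted p = 0.0142) and -0.27 ± 0.09 in 23/24 (adjusted p = 0.401, not called). Pfkfb4, known mainly from testis, read 5.20, 5.28 and 5.20 in γ+, 6.08, 5.72 and 5.81 in γ-, 5.45, 5.46 and 5.56 in 23/24 and 5.47, 5.71 and 5.35 in control cultures. It was highest in γ- and lowest in γ+ cultures. Its fold change against control was -0.28 ± 0.11 in γ+ (SE; limma adjusted p = 0.0281) and 0.36 ± 0.11 in γ- (limma adjusted p = 0.0528, not called). Pfkfb3, the inducible form with high kinase activity, had -0.22 in γ+. Pfkfb1, the liver and skeletal muscle form, rose by 0.31 (limma adjusted p = 0.0209).

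**Figure D2:**
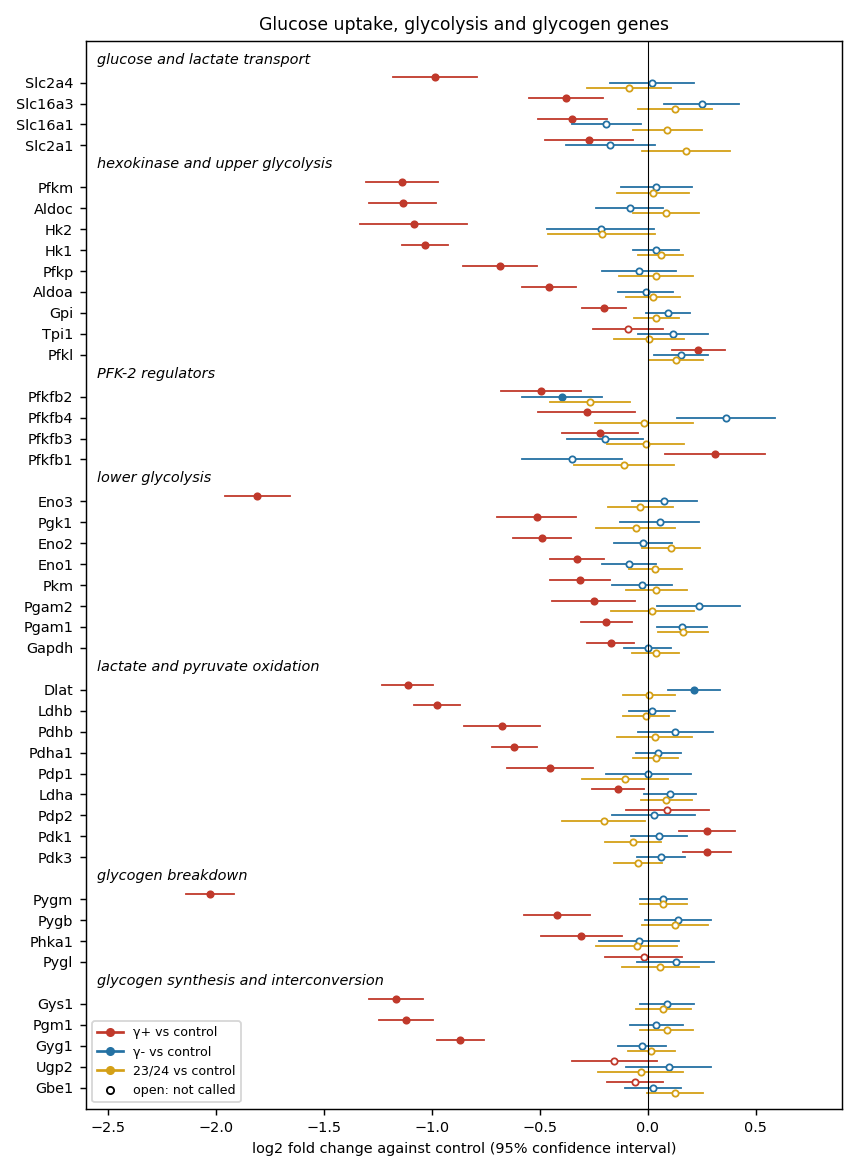
Log2 fold change against control (horizontal axis) of each of the 43 tested genes, grouped by role, in the γ+, γ- and 23/24 groups. Points are limma estimates from 3 arrays per group and lines 95% confidence intervals, filled where the adjusted p was under 0.05: 38 in γ+, 2 in γ- and 0 in 23/24. Ldha, at -0.14 in γ+, was 0.030 after quantile normalization.

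All 8 tested genes of the lower stretch, which yields ATP and ends in pyruvate, fell in γ+ cultures. Apart from Eno3 the falls were small. Pgk1, phosphoglycerate kinase, had -0.51, Eno2, the neuronal enolase, -0.49, Eno1, the ubiquitous enolase, -0.33, and the phosphoglycerate mutases Pgam2 (muscle) and Pgam1 (widely used) -0.25 and -0.19. Pkm, the pyruvate kinase gene that makes ATP at the last step, read 11.32, 11.03 and 11.28 in γ+, 11.49, 11.45 and 11.55 in γ-, 11.53, 11.52 and 11.64 in 23/24 and 11.54, 11.55 and 11.49 in control cultures. The γ+ arrays were below all others, with a fold change of -0.31 ± 0.07 against control (SE; limma adjusted p = 0.000557). Gapdh, glyceraldehyde phosphate dehydrogenase, read 13.70, 13.53 and 13.71 in γ+, 13.79, 13.89 and 13.77 in γ-, 13.85, 13.87 and 13.84 in 23/24 and 13.80, 13.88 and 13.77 in control cultures, with the γ+ arrays below all others and a fold change of -0.17 ± 0.05 against control (SE; limma adjusted p = 0.00797). Its probe set was the brightest on all 12 arrays, and its 15 probe sets gave γ+ minus control differences of -0.55 to 0.30. The rises were 0.30 and 0.20 in probe sets under the filter limit (means 2.86 and 3.56) and 0.05 in one with a mean of 11.38. All other Gapdh probe sets were lower, so the size of the small fall depends on the probe set. After quantile normalization the Gapdh fold change was 0, since the brightest value is then equal on all arrays. Pgam1 then had -0.002 and Pgam2 -0.18, both not called (limma adjusted p = 0.98 and 0.092). Gapdh, Pgam1 and Pgam2 were also not called with the arrays centred on their medians. Over its 3 probe sets, Eno1 ranged from -0.33 to -0.04, the latter in a dim probe set with a mean of 5.72.

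At the lactate and pyruvate steps the genes split. Ldhb, the heart-type lactate dehydrogenase subunit, read 9.69, 9.53 and 9.66 in γ+, 10.62, 10.63 and 10.62 in γ-, 10.56, 10.61 and 10.61 in 23/24 and 10.65, 10.57 and 10.60 in control cultures, with no overlap between γ+ and the rest. It fell by 0.98 (SE 0.05, limma adjusted p = 5.41e-11). Ldha, the subunit of glycolytic muscle, read 11.84, 11.69 and 11.73 in γ+, 11.99, 11.97 and 12.03 in γ-, 11.94, 11.97 and 12.03 in 23/24 and 11.99, 11.93 and 11.77 in control cultures. Its γ+ arrays were below those of γ- and 23/24 cultures but overlapped the control arrays, and the fold change of -0.14 ± 0.06 (limma adjusted p = 0.0404) turned to 0.030 after quantile normalization.

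Subunits of the pyruvate dehydrogenase complex fell and 2 of its inhibitory kinases rose. Dlat, the acetyltransferase core of the complex, read 8.72, 8.56 and 8.71 in γ+, 9.99, 9.98 and 9.99 in γ-, 9.73, 9.80 and 9.80 in 23/24 and 9.85, 9.73 and 9.75 in control cultures. The γ+ arrays were the lowest and the γ- arrays the highest, and neither overlapped another group. In γ+ cultures Dlat fell by 1.11 against control (SE 0.06, limma adjusted p = 4.21e-11), Pdhb by 0.68 and Pdha1 by 0.62. Pdk1, a kinase that switches the complex off, read 8.33, 8.47 and 8.34 in γ+, 8.21, 8.18 and 8.10 in γ-, 8.04, 7.97 and 8.11 in 23/24 and 8.16, 8.09 and 8.08 in control cultures, and the γ+ arrays were above all others. It rose by 0.27 ± 0.06 (SE; limma adjusted p = 0.000999) and Pdk3, a kinase of the same family, by 0.27 (limma adjusted p = 0.000247). Pdp1, the phosphatase that switches the complex on, fell by 0.45, and Pdp2, a phosphatase with the same action, had 0.09 and was not called. Of the 9 genes at these steps, 6 fell and 2 rose.

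Glycogen genes were lower for both making and releasing the polymer. Gys1, muscle glycogen synthase, read 8.38, 8.19 and 8.31 in γ+, 9.53, 9.56 and 9.55 in γ-, 9.47, 9.50 and 9.62 in 23/24 and 9.47, 9.49 and 9.42 in control cultures. Gyg1, glycogenin, the protein primer on which glycogen is built, read 10.87, 10.68 and 10.86 in γ+, 11.62, 11.67 and 11.63 in γ-, 11.67, 11.65 and 11.73 in 23/24 and 11.63, 11.69 and 11.68 in control cultures. Pgm1, phosphoglucomutase, which links glycogen to glycolysis, read 8.86, 8.65 and 8.85 in γ+, 9.94, 9.90 and 9.99 in γ-, 9.97, 9.98 and 10.03 in 23/24 and 9.91, 9.94 and 9.87 in control cultures. In each of the 3 genes the γ+ arrays lay below all others and the other 3 groups lay close together. The fold changes in γ+ against control were -1.16 ± 0.06, -0.87 ± 0.05 and -1.12 ± 0.06 (SE; limma adjusted p = 4.41e-11, 3.28e-10 and 6.31e-11). Ugp2, which makes UDP-glucose, had -0.16, and the branching enzyme Gbe1 had -0.06, both not called. Among genes of breakdown besides Pygm, the brain-type phosphorylase Pygb fell by 0.42 and the phosphorylase kinase subunit Phka1 by 0.31. The liver-type phosphorylase Pygl had -0.02 and was not called.

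**Figure D3:**
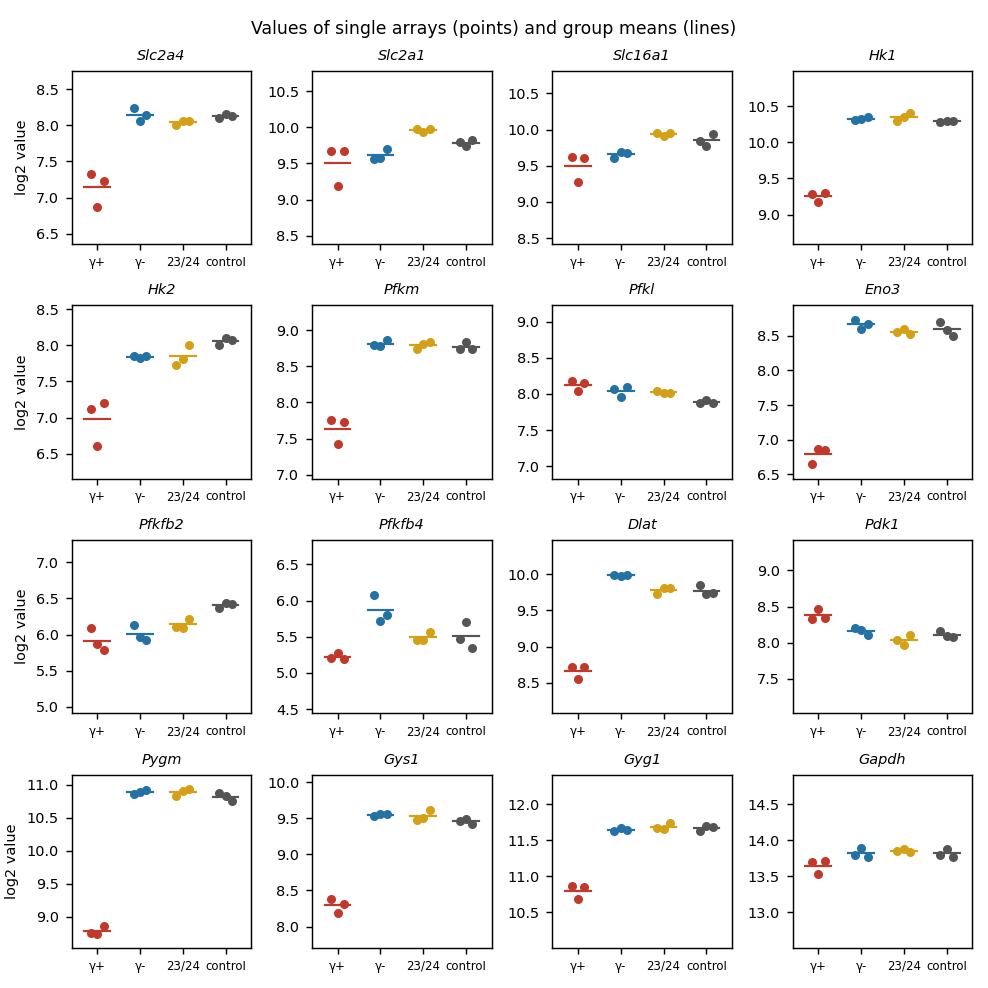
Deposited log2 values (vertical axis, on a scale of its own in each panel) of 16 glucose and glycogen genes in the γ+, γ-, 23/24 and control groups. Points are single arrays and lines are the means of 3. In Pygm, Eno3, Gys1, Gyg1, Hk1, Pfkm and Dlat the 3 γ+ arrays lie below all others, Pdk1 is highest in γ+, and Pfkfb2 is highest in control cultures.

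Isozymes of 1 step were then set against each other on the same array, a difference that an offset of the whole array cannot move. A processing effect that differs between bright and dim probe sets could move it, and this was not tested for the pairs. In 11 such pairs the control mean was set to 0. The muscle enolase Eno3 against Eno1 stood at -1.72, -1.23 and -1.49 on the γ+ arrays, and at -0.07 to 0.10 on the control arrays. Pygm against Pygb stood at -1.75, -1.44 and -1.63, against -0.08 to 0.08 in control. Pfkm against Pfkl was -1.30, -1.51 and -1.31, against -0.02 to 0.04 in control. The relative loss was thus larger for the muscle form in each of these pairs, and the γ+ arrays did not overlap those of the control. Ldhb against Ldha (-0.87 to -0.78 in γ+), Slc2a4 against Slc2a1 (-0.80 to -0.65), Pfkm against Pfkp (-0.50 to -0.42) and Pygb against Pygl (-0.55 to -0.27) were also below all control arrays. Aldoa against Aldoc was above them, at 0.61 to 0.78. Hk2 against Hk1, Pgam2 against Pgam1 and Slc16a3 against Slc16a1 overlapped the control arrays. These pairs are given without a test, because their members were chosen with results known.

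**Figure D4:**
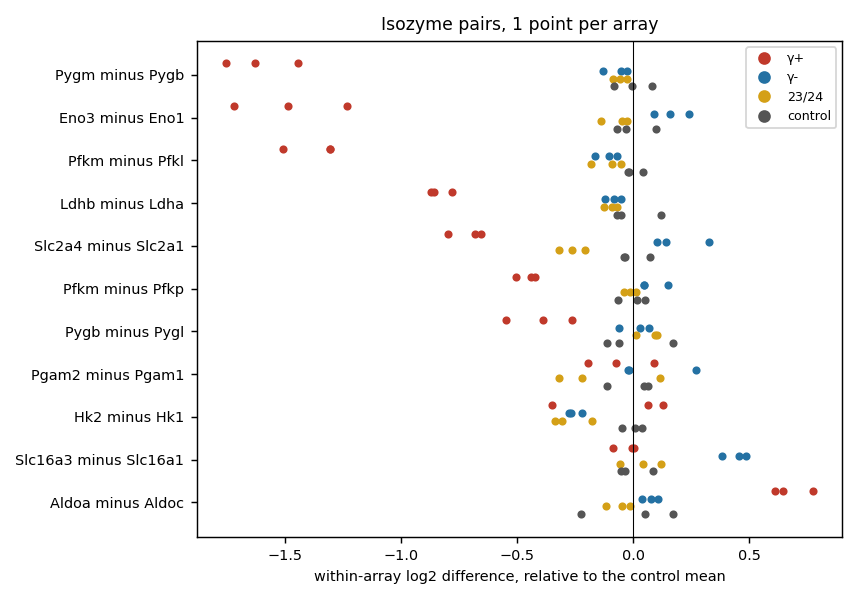
Difference between 2 isozyme genes on the same array, in log2 units relative to the control mean (horizontal axis), for 11 pairs, with 1 point per array of the γ+, γ-, 23/24 and control groups. The γ+ arrays lie furthest to the left for Pygm minus Pygb, Eno3 minus Eno1 and Pfkm minus Pfkl, and to the right for Aldoa minus Aldoc.

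Glucose and glycogen genes of γ- cultures stayed close to those of untreated cultures. Of 43 genes, 1 rose and 1 fell (limma), where 6.94% of all genes were called, 3.06% higher and 3.88% lower. The median fold change was 0.04 over the glucose genes and -0.01 over all genes. The gene that fell was Pfkfb2, given above, and the one that rose was Dlat, by 0.21 ± 0.06 (SE; limma adjusted p = 0.0336). No fold change in this comparison reached 0.5 in either direction, and the 95% confidence limits over the 43 genes ran from -0.58 to 0.59. At an unadjusted p under 0.05 there were 10 genes, and in 20 of the 43 (46.5%) the γ- and control arrays did not overlap, against 33.4% of all genes. The count moved with single arrays, including one outside the comparison, which enters the shared estimate of spread. Without γ+ replicate 2, 13 glucose genes were called (30.2%), 7 higher and 6 lower, where 16.6% of all genes were called. Those higher in γ- cultures were then Dlat, Pdhb, Pfkfb4, Pfkl, Pgam1, Pygb and Slc16a3, with log2 fold changes of 0.13 to 0.36, and those lower were Eno1, Hk2, Pfkfb1, Pfkfb2, Slc16a1 and Slc2a1, at -0.40 to -0.09. Pfkfb2 alone was called without control replicate 3, γ- replicate 1 or 23/24 replicate 2. With control replicate 2 left out, both calls were lost and Pfkfb4 alone was called (0.46, limma adjusted p = 0.0367). Leaving out γ- replicate 2 or 3 gave 0 calls.

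Within single arrays, 4 isozyme pairs of γ- cultures lay clear of the control arrays. Slc16a3 against Slc16a1 stood at 0.46, 0.38 and 0.49 on γ- arrays, against -0.05 to 0.08 in control. Slc2a4 against Slc2a1 stood at 0.33, 0.14 and 0.10, against -0.04 to 0.07. Hk2 against Hk1 stood at -0.22, -0.28 and -0.27, against -0.05 to 0.04, and Pfkm against Pfkl at -0.17, -0.07 and -0.11, against -0.02 to 0.04. In γ+ cultures the transporter pair had moved the other way, as given above.

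Cultures given the 23/24 form had no glucose or glycogen gene called against control, the comparison within 1 set of arrays that share equal values. The same limma fit called 0% of all 10025 genes here, and no other tool was run. At an unadjusted p under 0.05 there were 899 genes and 4 glucose genes. Without γ+ replicate 2, which enters the shared estimate of spread, 58 of all genes (0.579%) and 0 glucose genes were called. The median fold change was 0.03 over the glucose genes and -0.02 over all genes. The lowest value was -0.27 ± 0.09, for Pfkfb2, and the highest 0.18 ± 0.10, for Slc2a1 (SE; limma adjusted p = 0.401 and 0.605). The 95% confidence limits over the 43 genes ran from -0.46 to 0.38. The 23/24 and control arrays did not overlap in 11 of the 43 genes (25.6%), against 17.9% of all genes. Within arrays, Slc2a4 against Slc2a1 was at -0.32, -0.21 and -0.27 in 23/24 cultures, Hk2 against Hk1 at -0.34, -0.31 and -0.18, and Pfkm against Pfkl at -0.18, -0.09 and -0.05, each below all 3 control arrays.

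The virus groups were also compared with each other, which sets 1 adenovirus against another. Each of these comparisons crosses the sets of arrays that share equal values, so processing by set cannot be told apart from the insert. In γ+ against γ- cultures, 32 of the 43 genes were lower and 3 higher (limma), where 64.2% of all genes were called, 37.5% lower and 26.7% higher. The median was -0.46, against -0.06 over all genes. Pygm (-2.10 ± 0.05), Eno3 (-1.88 ± 0.07), Dlat (-1.33 ± 0.06), Gys1 (-1.25 ± 0.06) and Pfkm (-1.18 ± 0.08) led the falls (log2 fold change and SE; limma adjusted p = 1.73e-14, 1.93e-12, 6.33e-12, 2.11e-11 and 1.31e-09). The genes that were higher were Pfkfb1 (0.66), Pdk1 (0.22) and Pdk3 (0.21). Pfkfb2, low in both groups, differed by -0.10 (limma adjusted p = 0.352), with a 95% confidence interval of -0.28 to 0.09. Slc2a1 and Slc16a1 were not called either, at -0.10 and -0.16. With γ+ replicate 2 left out, 31 glucose genes were lower and 3 higher, with a median of -0.385, where 66.2% of all genes were called.

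In γ+ against 23/24 cultures, 35 of the 43 genes were lower and 4 higher (limma), where 65.8% of all genes were called, 37.9% lower and 28% higher. With the arrays centred on their medians, 25 were lower and 5 higher, where 63.2% of all genes were called, 26.2% lower and 36.9% higher, and the median of all genes moved to 0.07, against -0.07 uncentred. Pygm had -2.10 ± 0.05, Eno3 -1.77 ± 0.07 and Gys1 -1.24 ± 0.06 (SE). The higher genes were Pfkfb1, Pdk1, Pdk3 and Pdp2, at 0.29 to 0.42. The median over the 43 genes was -0.44. With γ+ replicate 2 left out it was -0.312, with 33 lower and 5 higher, where 68.4% of all genes were called. These values share the γ+ arrays with the comparisons above and are no separate evidence.

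In γ- against 23/24 cultures, 2 glucose genes were higher and 2 lower (limma), where 8.1% of all genes were called, 4.16% higher and 3.94% lower. Dlat was higher by 0.21 ± 0.06 and Pfkfb4 by 0.38 ± 0.11 (SE; limma adjusted p = 0.0328 and 0.04). Slc2a1 was lower, at -0.35 ± 0.10, and so was Slc16a1, at -0.28 ± 0.08 (limma adjusted p = 0.0362 and 0.0328). The arrays listed above for these 4 genes do not overlap between γ- and 23/24 cultures. Slc2a1, for glucose uptake without insulin, and Slc16a1, for lactate, were thus both lower in γ- than in 23/24 cultures, by under 0.5 on the log2 scale. Without γ+ replicate 2, 7 genes were called (16.3%), 4 higher and 3 lower, where 18.3% of all genes were called, adding Pgk1, Pdp2 and Eno1. The count was 2 without control replicate 1, 1 without γ- replicate 2, and 0 without γ- replicate 1 or 3 or without any 1 of the 23/24 replicates. Median centring left 2 higher and 0 lower, where 8.94% of all genes were called, 6.96% higher and 1.98% lower.

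Genes next to the route were counted from a wider list of 54, of which 41 were tested. In γ+ against control, 26.2% of all genes were higher and 38.7% lower. Of the 41, 9 were higher and 19 lower, with a median of -0.16. Those of lowest p were Pdk2, the abundant heart form of pyruvate dehydrogenase kinase (-1.28 ± 0.05), Gfpt2, which opens the hexosamine pathway (-1.46 ± 0.06), Sord, sorbitol dehydrogenase of the polyol pathway (1.52 ± 0.08), and Slc16a7, the pyruvate carrier MCT2 (-1.20 ± 0.07; SE, limma adjusted p = 4.74e-12, 8.69e-12, 1.29e-10 and 3.73e-10). Kinases of pyruvate dehydrogenase therefore moved in both directions, Pdk2 down and Pdk1 and Pdk3 up. In γ- against control, Tigar, a phosphatase that lowers the phosphofructokinase activator, was higher by 0.47 and Pdhx, a structural subunit of the pyruvate dehydrogenase complex, by 0.22 (limma adjusted p = 0.00949 and 0.0477). Gfpt2 had -0.48 and Slc2a8, an intracellular glucose transporter, -0.27 (limma adjusted p = 0.000831 and 0.0191). Over all genes, 3.06% were higher and 3.88% lower in γ- cultures. In 23/24 against control 0 of the 41 and 0% of all genes were called.

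Of all genes, 38.7% were lower and 26.2% higher in γ+ than in control cultures. Regulators of the route by insulin, energy state and oxygen were lower in 15 of 24 tested genes and higher in 3, with a median of -0.34. Egln3, an oxygen-sensing prolyl hydroxylase (-1.29 ± 0.06), Igf1r (-0.96 ± 0.05) and Insr (-0.92 ± 0.06), the receptors of insulin-like growth factor and insulin, and the transcription factor Myc (-0.97 ± 0.06) had the lowest p (SE; limma adjusted p = 5.86e-12, 1.67e-10, 1.48e-09 and 1.31e-09). Of 15 genes known to respond to hypoxia outside glycolysis, 8 fell and 2 rose, with a median of -0.34, where 64.9% of all genes were called. The hypoxia genes were led by Egln3, which is on both lists, the collagen-modifying enzymes Plod2 (-1.02) and P4ha2 (-0.89), and the angiogenic factor Vegfa (-0.84).

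In γ- cultures 4 of the 24 regulators were higher and 3 lower than in control, where 3.06% of all genes were higher and 3.88% lower. The higher ones were Vhl, which targets hypoxia-inducible factor for degradation (0.33), the metabolic coactivator Ppargc1a (0.30), Egln3 (0.21) and Txnip, an inhibitor of glucose uptake (0.18). The lower ones were Myc (-0.35), Insr (-0.26) and Mlx, a partner of glucose-sensing transcription factors (-0.24). Of the hypoxia genes, Ddit4, an inhibitor of mTOR signalling, was lower (-0.31), and Egln3 was higher. In 23/24 cultures 0 of either list and 0% of all genes were called.

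Markers of the cell types in the culture moved with the γ+ group, where 38.7% of all genes were lower and 26.2% higher than in control. All 12 cardiomyocyte markers were lower in γ+ than in control, with a median of -1.21, and their mean log2 level was 11.03 to 11.11 on γ+ arrays, against 12.23 to 12.29 on control arrays. Markers of other cells were lower too: 10 of 10 for fibroblasts (8.22 to 8.39 on γ+ arrays, against 9.64 to 9.65 on control arrays), 7 of 8 for smooth muscle (8.63 to 8.64, against 9.49 to 9.51), 9 of 9 for endothelium (6.12 to 6.20, against 7.07 to 7.13) and 6 of 8 for leukocytes (5.93 to 5.99, against 6.32 to 6.36). The endothelial marker Vwf and the leukocyte markers Ptprc and C1qa were not tested. The part of these levels in the fall of the glucose genes was not tested. In γ- cultures the cardiomyocyte mean was 12.29 to 12.31 and in 23/24 cultures 12.24 to 12.29. The γ- group had 1 cardiomyocyte marker higher and 1 fibroblast, 3 endothelial and 3 leukocyte markers lower than control, and the 23/24 group had 0 called. Over all genes, 3.06% were higher and 3.88% lower in γ- cultures, and 0% were called in 23/24 cultures.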

How the data were processed

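Gene expression was measured on 12 arrays, 3 in each of 4 groups, with groups and replicate numbers taken from the sample titles. The deposited table of 28826 probe sets was used as log2 values (1.09 to 13.89, array medians 5.33 to 5.53). The submitters' processing notes name MAS5, and for the background correction, log base and normalization nothing is stated in the labels or headers. Only probe sets whose 12-array mean exceeded the 40th percentile of those means (log2 4.78) were kept. Each gene was represented by its brightest single-gene probe set on average, giving 10025 genes. Of all probe sets, 15209 had 1 gene symbol, 306 several and 13311 none.

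Group means were fitted to all 12 arrays with limma 3.58.1 in R 4.3.3 (lmFit, eBayes with an intensity trend, 8 residual degrees of freedom). Benjamini-Hochberg adjustment ran over all genes within each of 6 comparisons, and an adjusted p under 0.05 was called. Values with ± are the estimate and its standard error. Equal values occurred in all 21 pairs of arrays within the 3 sets (27 to 111 per pair) and in 0 of 45 pairs across them. The number of arrays limits the precision.

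The members, the gene lists and the rule for named genes were chosen with earlier results of these data known. Values on every array are given for the 12 largest changes in γ+ against control, for genes called in the comparisons of γ- or 23/24 with each other or with control, and for fixed steps of entry, commitment, exit and storage, plus Gapdh, which was added after its values were seen. From the wider lists, up to 4 genes of lowest p in γ+ are named, with those called in the other comparisons with control. Alternatives were median centring, quantile normalization, no filter or the 60th percentile, the mean over probe sets, no intensity trend, a replicate block, the 6 arrays compared, a fold minimum of 0.5 log2, and each array left out.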

Additional observations from a re-analysis of the deposited data

How the results depend on the processing

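The counts of glucose and glycogen genes called in the γ+ comparisons stayed within 1.5 times their values under all settings except the fold minimum of 0.5 log2, which left 16 in γ+ against control, 20 in γ+ against γ- and 18 in γ+ against 23/24. Leaving out 1 array at a time gave 33 to 38, 32 to 36 and 35 to 39 in these comparisons. The 2 calls in γ- against control became 1 under median centring and under the filter at the 60th percentile, 8 with the 6 arrays compared alone, 0 with the fold minimum, and 0 to 13 with 1 array left out. The 4 calls in γ- against 23/24 became 2 under median centring, 1 without the intensity trend, 7 with the 6 arrays alone, 0 with the fold minimum, and 0 to 7 with 1 array left out. The highest of these counts, 13 and 7, came without γ+ replicate 2. That array enters these comparisons only through the shared estimate of spread, and why it differed from its replicates was not tested. In 23/24 against control 0 were called in every setting. Ldha changed sign in γ+ against control after quantile normalization (0.030, limma adjusted p = 0.613) and in γ- against 23/24 with the mean over its probe sets (-0.21, limma adjusted p = 0.0309). Gapdh, the brightest probe set, is 0 by construction after quantile normalization.

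Deviations of same-numbered arrays of different groups gave 18 correlations of -0.22 to 0.12, against -0.23 to 0.26 for differently numbered arrays. With 3 arrays a group, these cannot show whether the labels' numbers pair the samples, and the main fit used no pairing. Replicate number as a block gave 38 calls in γ+ against control, 1 in γ- against control, 0 in 23/24 against control, 35 in γ+ against γ-, 38 in γ+ against 23/24 and 2 in γ- against 23/24. With 3 arrays a group, the standard errors of 0.05 to 0.12 log2 set what could be detected.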
